A study of Mus musculus with 9 samples.

Results

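Of the 55367 gene symbols counted in mouse monocytes, 39 genes of the cell cycle and of DNA replication were examined together. They were chosen by symbol, without a rule on their levels, but with earlier results of these data known. They are 15 S-phase genes, 9 genes of G1/S control and 15 mitotic genes. All 39 had a row in every library and all 39 were among the 13707 genes with enough counts to be tested. The monocytes came from adult mice and were incubated for 4 h with control buffer alone, adult platelets or platelets from P7 mice. P7 usually stands for postnatal day 7. They were then washed and their mRNA was sequenced, with 3 libraries per group and 9 in all. All groups thus share the adult monocytes, the 4 h and the wash, and differ in what was added. The sources used here name neither the strain and sex of the mice nor how monocytes and platelets were prepared. Whether replicates came from separate animals or cultures is also unstated. The p-values therefore measure the spread among these libraries alone, part of which may be technical.

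A dividing cell passes through G1, S phase, G2 and mitosis. D-type cyclins with CDK4 or CDK6, and then E-type cyclins with CDK2, inactivate the retinoblastoma protein and free E2F factors, which switch on the genes that copy DNA. The MCM2-7 helicase is loaded onto origins by CDC6 and CDT1 in G1 and fired in S phase with CDC45. CDK1 with cyclin A or cyclin B then drives entry into mitosis. Circulating monocytes are known as mostly non-dividing cells that arise from dividing bone marrow precursors. In bulk RNA, a lower share of cycling cells and less of a transcript per cycling cell cannot be told apart.

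Total counts ranged from 29687341 to 37065564 per library. Levels are normalised CPM, the share of a library's counts in CPM after TMM scaling. Each log2 fold change stands with its ± SE and with the Benjamini-Hochberg adjusted p of edgeR's quasi-likelihood test over all genes tested. A gene was called at an adjusted p under 0.05. The 9 monocyte markers looked for, Csf1r among them, were all detected in every library and made up 2.47 to 3.11% of counts. Red cell transcripts (14 genes, globins and Alas2 included) made up 0.00143 to 0.00179% of counts in control, 0.0519 to 0.181% with adult platelets and 4.37 to 5.52% with P7 platelets. The 8 genes listed for nucleated erythroid precursors, none at 0 in any library, summed to 0.00240 to 0.00261% in control, 0.00278 to 0.00442% with adult platelets and 0.00683 to 0.00733% with P7 platelets. With P7 platelets 6 of these 8 were called higher than in control: Trim10, Kel, Epor, Gfi1b, Gata1 and Tfrc, with log2 fold changes from 0.47 for Tfrc to 7.48 for Trim10. Klf1 (0.52) and Tal1 (0.33) were not called. Adult platelets went with 4 of 8 called higher. Gata1 and Gfi1b are also expressed by megakaryocytes. The 8 markers of myeloid progenitors, a dividing cell of the marrow, made up 0.0153 to 0.0207% of counts in control, 0.0167 to 0.0226% with adult platelets and 0.0104 to 0.0109% with P7 platelets, with none at 0. Cd34, Elane and Flt3 fell with P7 platelets against control (log2 fold changes -1.30 ± 0.19, adjusted p = 0.000291, -0.62 ± 0.20, adjusted p = 0.0225 and -0.58 ± 0.18, adjusted p = 0.0184), and Kit rose (1.39 ± 0.31, adjusted p = 0.00373). Between P7 and adult platelets 6 of the 8 were lower and Kit was higher. With adult platelets their log2 fold changes against control ran from 0.03 to 0.47 (edgeR adjusted p at least 0.191). The 13 platelet transcripts made up 0.000753 to 0.00151% of control counts, with 2 or 3 of the genes at 0, against 0.0737 to 0.136% with adult and 0.121 to 0.142% with P7 platelets. T and NK cell markers reached at most 0.000393%. The part of these other transcripts in the differences below was not tested.

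Cell cycle promoters carry short words bound by E2F factors (the G1/S program) or, at the CHR element, by the DREAM and MuvB complexes (the G2 and mitotic program), and the promoters of a few members are shown to set both programs side by side. They come from RefSeq, build GRCm38.p6, and are written 5′ to 3′ on the strand of the gene, with E2F words (TTTCCCGC, TTTCGCGC, TTTGCCGC or TTTGGCGC on either strand) and CHR words (TTTGAA or TTCGAA on either strand) in capitals. Words of the same kind on opposite strands may overlap, so a run of capitals can hold more than 1 word. The Mcm5 stretch is chr8:75109339-75109508 (plus strand), the Mcm6 stretch chr1:128359706-128359825 (minus), the Cdk1 stretch chr10:69352939-69353082 (minus) and the Top2a stretch chr11:99024190-99024379 (minus). These 4 lie before the RefSeq start of the gene and touch no GENCODE M21 exon. The Cdk1 stretch ends 27 bases before the start. It leaves out a further CHR word, TTTGAA, whose first base lies 15 bases before the start. The Cdt1 site, chr8:122568039-122568062 (plus), spans the end of the 5′ UTR and the first coding bases in exon 1.
Mcm5: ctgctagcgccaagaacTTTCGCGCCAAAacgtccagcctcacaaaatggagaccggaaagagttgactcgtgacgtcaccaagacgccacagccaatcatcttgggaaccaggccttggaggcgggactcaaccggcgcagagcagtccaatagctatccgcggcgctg
Mcm6: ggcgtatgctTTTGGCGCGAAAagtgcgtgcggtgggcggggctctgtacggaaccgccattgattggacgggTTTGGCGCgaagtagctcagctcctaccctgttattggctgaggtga
Cdt1: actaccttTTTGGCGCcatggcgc
Cdk1: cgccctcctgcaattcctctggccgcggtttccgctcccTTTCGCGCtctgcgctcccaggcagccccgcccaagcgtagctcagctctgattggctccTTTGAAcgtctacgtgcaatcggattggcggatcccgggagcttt
Top2a: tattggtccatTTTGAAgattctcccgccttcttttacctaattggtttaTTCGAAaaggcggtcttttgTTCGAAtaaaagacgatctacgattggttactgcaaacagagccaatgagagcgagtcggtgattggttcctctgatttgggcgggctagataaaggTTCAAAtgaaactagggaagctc

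Windows of 300 bases (250 before the start to 50 after it) were found for 32 members; Mcm4, Ccnd1, Ccnd2, Ccne2, Ccna2, Aurkb and Tpx2 had none. An E2F word stood in 7 of 14 S-phase genes (50%), 2 of 6 G1/S genes (33.3%) and 1 of 12 mitotic genes (8.33%), against 704 of 27025 genes (2.6%) in the whole table. CHR words were found in 3 of 14 S-phase genes (21.4%), 1 of 6 G1/S genes (16.7%) and 10 of 12 mitotic genes (83.3%), against 21.7% of all genes. The CCAAT box, searched as CCAAT on either strand, was in 10 of 14 S-phase windows (71.4%), 3 of 6 G1/S windows (50%) and 11 of 12 mitotic windows (91.7%), against 41.1% of all genes. The 10 members with an E2F word were Cdc6, Cdk1, Cdk2, Cdt1, E2f2, Mcm3, Mcm5, Mcm6, Mcm7 and Uhrf1. A match describes letters only and shows no binding.

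Most of the 39 genes had slightly more transcript with adult platelets than in control, and with P7 platelets more members were called higher than lower. With adult platelets 15 of the 39 rose and 0 fell in the edgeR test (38.5 and 0%). Over all genes tested, 14.3% were called higher and 12% lower. At an unadjusted p under 0.05 the numbers were 22 and 0, and the DESeq2 Wald test called 16 and 0. The members' log2 fold changes ran from -0.18 to 1.02 around a median of 0.22, against -0.002 over all genes. With P7 platelets 17 rose and 8 fell (43.6 and 20.5%), where 29.9% of all genes were called higher and 29.3% lower. The share of members that fell was thus under that of all genes. The members' median was 0.17 against -0.01. Compared directly, 4 members were higher and 9 lower with P7 than with adult platelets (10.3 and 23.1%), beside 19.7% and 19.8% of all genes. The median was -0.05 against -0.02. Both comparisons with control use the same 3 control libraries. The changes were small. No member called with adult platelets reached a 2-fold change, and with P7 platelets only Ccnd1, Ccnd2 and Cdt1 did.

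**Figure D1:**
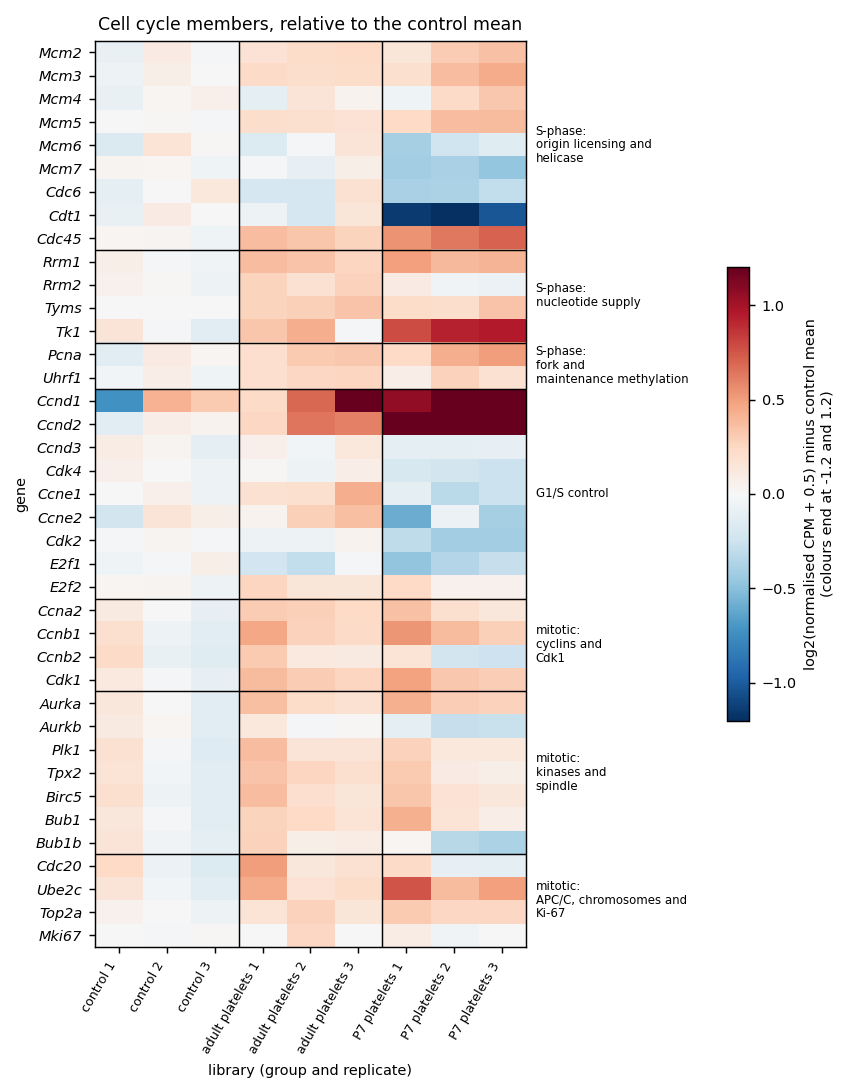
Heat map of the 39 genes (rows, grouped by role) in the 9 libraries (columns), as log2(normalised CPM + 0.5) minus the control mean of the gene; colours end at -1.2 and 1.2. Adult platelet columns are pale red for most genes, and in the P7 columns Cdt1 is blue while Ccnd1, Ccnd2 and Tk1 are dark red.

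The rise with adult platelets rested on small differences that single libraries could move. Only Cdc45, Rrm1 and Tyms of the 15 kept their call when each of the 9 libraries was left out in turn. Leaving out control 3 ended 12 calls, control 2 ended 9 and P7 2 ended 7. Adult 1 and adult 2 ended 6 each, control 1 and P7 3 ended 5 each and adult 3 ended 4, while P7 1 ended none. In the P7 comparison with control 20 of 25 calls held in every such fit. Cdc6, Uhrf1, Ccne1, Ccna2 and Aurkb lost theirs. Between P7 and adult platelets 9 of 13 held, and Mcm5, Ccne2, Aurkb and Bub1b lost theirs.

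**Figure D2:**
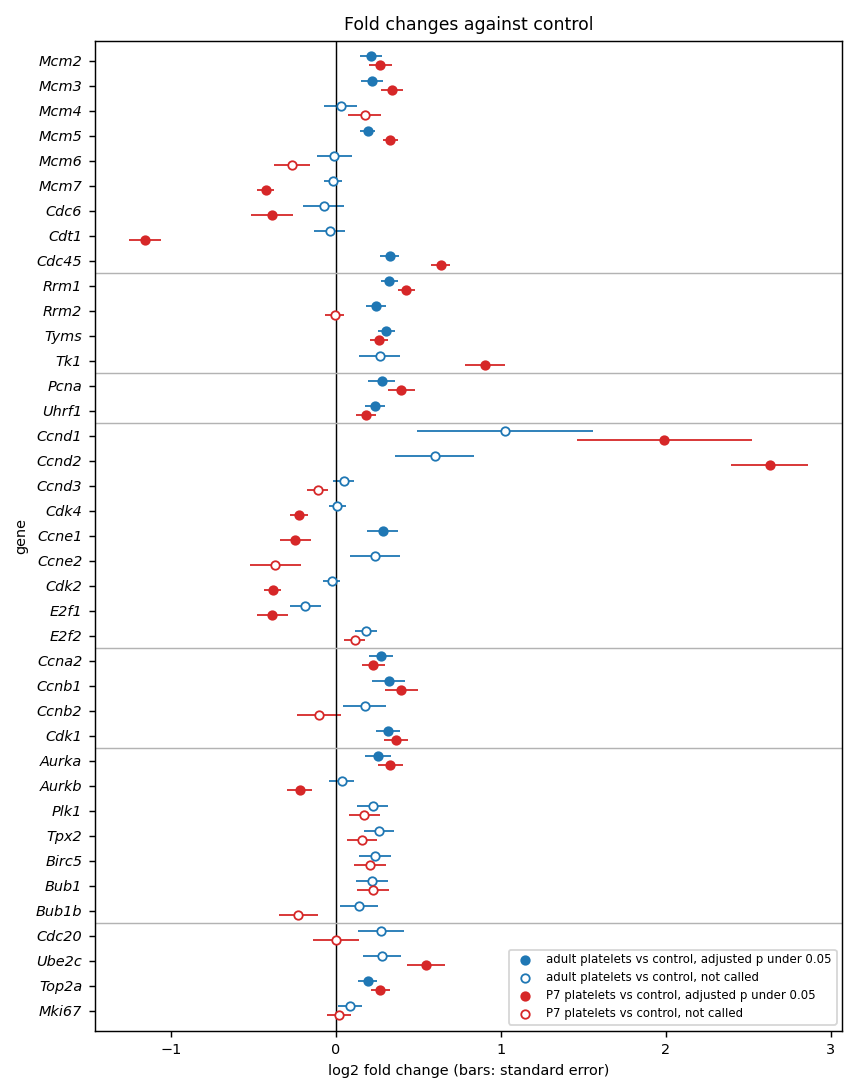
Log2 fold change against control of each gene (horizontal axis, bars ± SE) with adult platelets in blue and P7 platelets in red; filled points passed an adjusted p of 0.05 and open points did not. Most blue points lie between 0 and 0.35, while the red points spread from -1.16 for Cdt1 to 2.63 for Ccnd2.

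Levels of different genes were compared per kilobase of the union of their annotated exons. This union can be longer than the mRNA made, by an amount that differs between genes, so the ranking is approximate. The control libraries held most transcript of Mki67, the proliferation antigen Ki-67, at 107 ± 1.06 CPM per kb. Next came Top2a, the topoisomerase that untangles sister chromatids, at 81.2 ± 3.37 CPM per kb (SD, n = 3 for each gene). The mitotic genes filled 10 of the 11 highest places. The exception was E2f2, an activating E2F, ranked 4 at 57.9 ± 1.98 CPM per kb. Among the mitotic genes Bub1b (48.6 ± 4.85), Plk1 (47.4 ± 5.59), Cdc20 (44.3 ± 6.73) and Tpx2 (42.9 ± 4.63 CPM per kb) lay within their own spread of one another. The lowest were the loading factor Cdc6 at 1.47 ± 0.132 and the D cyclins Ccnd2 at 0.243 ± 0.0218 and Ccnd1 at 0.164 ± 0.101 CPM per kb, while the remaining D cyclin, Ccnd3, was at 21.2 ± 1.56 CPM per kb.

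Among the G1/S control genes, P7 platelets went with more Ccnd1 and Ccnd2 and with less Cdk4, Cdk2, E2f1 and Ccne1. So 2 rose and 4 of 9 fell (22.2 and 44.4%, against 29.9 and 29.3% of all genes tested). With adult platelets only Ccne1 rose and 0 fell (11.1 and 0%, against 14.3 and 12%). Ccnd2, a D cyclin that activates CDK4 and CDK6, was at 2.05, 2.44 and 2.36 CPM in control, 2.80, 3.83 and 3.74 CPM with adult platelets and 9.24, 16.6 and 16.6 CPM with P7 platelets. The groups did not overlap in any pair, and P7 1 was the lowest P7 library. The log2 fold change with P7 platelets was 2.63 ± 0.23 (adjusted p = 1.67e-05) against control, or 6.19-fold, and 2.03 ± 0.23 (adjusted p = 0.000239) against adult platelets. Against control the value with adult platelets was 0.60 ± 0.24 on the log2 scale (adjusted p = 0.0958). Ccnd1, the D cyclin best known from growth factor responses, ranged over 0.225 to 1.10 CPM in control, 0.903 to 2.37 CPM with adult and 2.01 to 3.62 CPM with P7 platelets. It rose with P7 platelets by 1.99 ± 0.53 on the log2 scale (adjusted p = 0.00962). Its counts were low and control 1 was the lowest library. Ccnd3, the main D cyclin of these libraries by level per kb, was not called in any comparison (log2 fold changes 0.05, -0.11 and -0.16 for adult against control, P7 against control and P7 against adult).

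The kinase genes Cdk2 and Cdk4 fell with P7 platelets, whereas Cdk6, which is no member and is described with the other pathway genes, rose. Cdk2, the partner of cyclins E and A, was at 73.9, 76.5 and 74.1 CPM in control, 71.8, 71.8 and 77.1 CPM with adult platelets and 60.5, 55.9 and 56.0 CPM with P7 platelets. The 3 P7 libraries lay below all 6 others, and the log2 fold change was -0.38 ± 0.05 (adjusted p = 0.000176) against control and -0.36 ± 0.05 (adjusted p = 0.000730) against adult platelets. Cdk4, the partner of the D cyclins, was at 81.5, 78.5 and 74.9 CPM in control, 78.8, 74.8 and 83.0 CPM with adult platelets and 68.5, 67.2 and 65.5 CPM with P7 platelets. It too was lowest in every P7 library, with log2 fold changes of -0.22 ± 0.05 (adjusted p = 0.00554) and -0.23 ± 0.05 (adjusted p = 0.00748). E2f1, an activating E2F, fell with P7 platelets from 10.5 to 11.4 CPM in control to 7.73 to 8.93 CPM (-0.38 ± 0.09 on the log2 scale, adjusted p = 0.00641), and E2f2 was not called in any comparison.

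Ccne1, a cyclin E gene that E2F switches on before S phase, was called higher with adult platelets and lower with P7 platelets. It was at 9.98, 10.5 and 9.57 CPM in control, 11.4, 11.5 and 13.7 CPM with adult platelets and 9.17, 7.88 and 8.29 CPM with P7 platelets, so every adult platelet library lay above, and every P7 library below, all control libraries. P7 against adult platelets gave -0.53 ± 0.09 on the log2 scale (adjusted p = 0.00219), a call that held with any 1 library left out (adjusted p at most 0.0121). Against control both calls stood at the threshold, at 0.28 ± 0.09 on the log2 scale (adjusted p = 0.0494) with adult and -0.24 ± 0.09 (adjusted p = 0.0494) with P7 platelets. Leaving out any of adult 1, adult 3, the 3 control libraries, P7 2 or P7 3 ended the first (adjusted p up to 0.152), and any of adult 2, the 3 control libraries, P7 2 or P7 3 ended the second (up to 0.156). Ccne2, the other cyclin E gene, was lower with P7 than with adult platelets (-0.60 ± 0.16 on the log2 scale, adjusted p = 0.0135), a call lost without P7 3 (adjusted p = 0.0507).

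**Figure D3:**
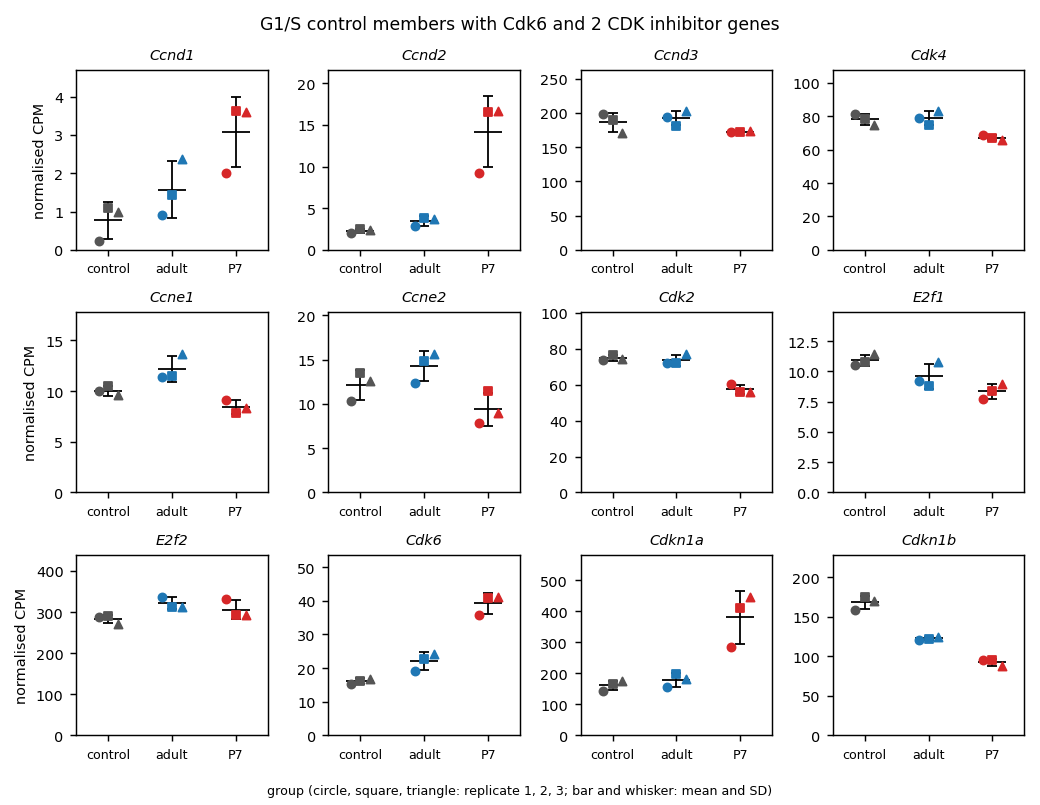
Normalised CPM in each library of the 9 G1/S control genes and of Cdk6, Cdkn1a and Cdkn1b, from 0; markers show replicates 1 to 3, the bar and whiskers the mean and SD of 3 libraries. Ccnd2, Cdk6 and Cdkn1a are highest in all 3 P7 libraries, and Cdk4, Cdk2 and Cdkn1b are lowest there.

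Of the 9 genes that load and start the replicative helicase, Mcm2, Mcm3, Mcm5 and Cdc45 rose with P7 platelets. Mcm7, Cdc6 and Cdt1 fell, and Mcm4 and Mcm6 were not called. With P7 platelets these shares, 44.4 and 33.3%, stood against 29.9 and 29.3% of all genes tested, so the share that fell was near that of all genes. With adult platelets Mcm2, Mcm3, Mcm5 and Cdc45 rose and 0 of the 9 fell (44.4 and 0%, against 14.3 and 12%). The adult platelet call of Mcm2 ended without any of the 3 adult platelet libraries, control 1, control 3, P7 2 or P7 3 (adjusted p up to 0.139), and that of Mcm3 without any adult platelet or control library or P7 2 (up to 0.108). Cdt1, which places the MCM complex on origins in G1 and is destroyed once S phase begins, was at 32.4, 37.0 and 34.3 CPM in control, 33.0, 30.0 and 38.2 CPM with adult platelets and 15.3, 14.4 and 16.7 CPM with P7 platelets. All P7 libraries lay at or under 16.7 CPM and all others at or above 30.0 CPM. The log2 fold change was -1.16 ± 0.10 (adjusted p = 1.28e-05) against control, 44.9% of its level, and -1.12 ± 0.10 (adjusted p = 7.04e-05) against adult platelets. Adult platelets against control gave -0.04 ± 0.09 on the log2 scale (adjusted p = 0.814). Its reference window holds the E2F word TTTGGCGC printed above.

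Cdc45, which joins the MCM ring to form the moving helicase, rose stepwise over the groups. It was at 31.9, 32.0 and 30.2 CPM in control, 40.7, 39.5 and 37.9 CPM with adult platelets and 45.6, 48.9 and 51.5 CPM with P7 platelets, with no overlap between any pair of groups. The differences were 0.33 ± 0.06 on the log2 scale (adjusted p = 0.00341) for adult platelets, 0.64 ± 0.06 (adjusted p = 1.72e-05) for P7 platelets and 0.31 ± 0.06 (adjusted p = 0.00258) for P7 against adult platelets, and each of these calls held with any 1 library left out. The gene is the only member to be called in the same direction in all 3 comparisons apart from Mcm5.

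The 6 ring subunits did not move as a block. Mcm5 was at 109, 110.3 and 108 CPM in control, 126, 125 and 124 CPM with adult platelets and 129, 141 and 142 CPM with P7 platelets, again without overlap. Its log2 fold change was 0.19 ± 0.05 (adjusted p = 0.0161) with adult and 0.33 ± 0.05 (adjusted p = 0.000261) with P7 platelets. The first was lost without control 2 or control 3 (adjusted p up to 0.0649). The difference between P7 and adult platelets, 0.14 ± 0.05 on the log2 scale (adjusted p = 0.0426), was lost without any 1 of 8 libraries, P7 1 being the exception (up to 0.158). Mcm7 was at 86.8, 86.0 and 81.8 CPM in control, 83.4, 79.3 and 89.3 CPM with adult platelets and 63.5, 64.6 and 61.5 CPM with P7 platelets. The P7 libraries lay below all others, with -0.43 ± 0.05 on the log2 scale (adjusted p = 0.000130) against control and -0.41 ± 0.05 (adjusted p = 0.000511) against adult platelets. Mcm2 and Mcm3 rose with P7 platelets by 0.27 ± 0.07 and 0.34 ± 0.07 on the log2 scale (adjusted p = 0.00737 and 0.00180). Mcm4 had 0.17 and Mcm6 -0.26 against control with P7 platelets, neither past the threshold (adjusted p = 0.168 and 0.0582). Printed above, Mcm5 and Mcm6 both hold E2F words before the start. Of the 10 members with such a word 4 were called higher and 4 lower with P7 platelets against control. Of the 22 with a window but no such word 10 were higher and 3 lower, where 29.9 and 29.3% of all genes were called. The median log2 fold changes were -0.07 with and 0.22 without the word, and their difference was not tested.

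Cdc6, which acts with Cdt1 in loading, was the least abundant S-phase gene at 7.0 to 8.38 CPM in control and 5.72 to 6.13 CPM with P7 platelets. Its fall, at -0.38 ± 0.13 on the log2 scale (adjusted p = 0.0258), was lost without control 2, control 3, P7 1 or P7 2 (adjusted p up to 0.0918).

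**Figure D4:**
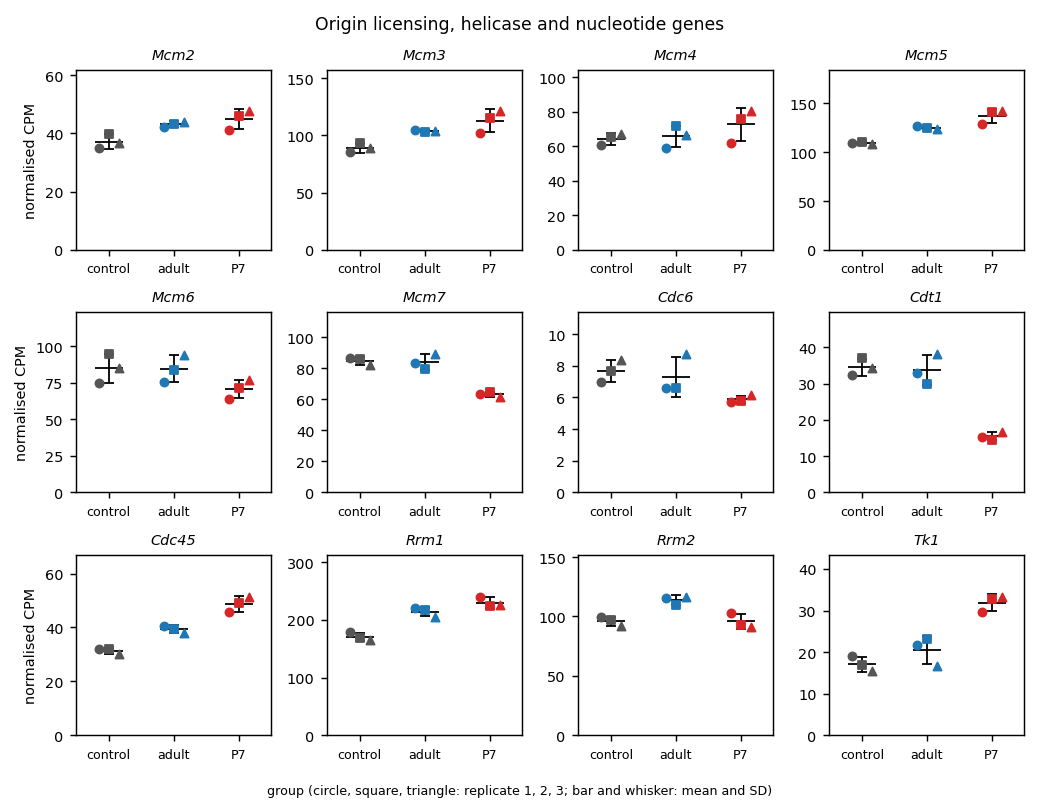
Normalised CPM in each library of 12 origin licensing, helicase and nucleotide genes, from 0; markers show replicates 1 to 3, the bar and whiskers the mean and SD of 3 libraries. Cdt1 and Mcm7 are lowest in the P7 libraries, Cdc45 climbs over the 3 groups and Tk1 is high in the P7 libraries.

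Most genes that supply nucleotides rose with both kinds of platelets. In each comparison with control 3 of 4 (75%) were called higher, against 14.3 and 29.9% of all genes tested. They were Rrm1, Rrm2 and Tyms with adult platelets, and Rrm1, Tyms and Tk1 with P7 platelets. Rrm1, the large subunit of ribonucleotide reductase, which makes deoxynucleotides, was at 179, 168 and 166 CPM in control, 221, 217 and 205 CPM with adult platelets and 240.5, 224 and 226 CPM with P7 platelets. Every control library lay below every other library, and the log2 fold changes were 0.33 ± 0.05 (adjusted p = 0.00270) and 0.43 ± 0.05 (adjusted p = 0.000123). Rrm2, its small subunit and the one that limits the enzyme in S phase, was at 99.4, 97.0 and 92.0 CPM in control, 116, 109 and 117 CPM with adult platelets and 103, 93.1 and 91.3 CPM with P7 platelets. It rose with adult platelets by 0.24 ± 0.06 on the log2 scale (adjusted p = 0.0147), which was lost without control 2 or control 3 (adjusted p up to 0.0652). With P7 platelets it had -0.01 ± 0.06 on the log2 scale (adjusted p = 0.944), and the P7 libraries were lower than the adult platelet libraries, at -0.25 ± 0.06 (adjusted p = 0.00831). The transcripts of both subunits of this enzyme thus rose with adult platelets, and that of the large subunit alone passed the test with P7 platelets. The difference between both genes was not tested.

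Tk1, thymidine kinase 1 of the salvage pathway, was at 19.0, 16.8 and 15.4 CPM in control, 21.6, 23.3 and 16.7 CPM with adult platelets and 29.7, 32.7 and 33.4 CPM with P7 platelets. The P7 libraries lay above all others while adult and control libraries overlapped, and the log2 fold change was 0.90 ± 0.12 (adjusted p = 0.000184) against control and 0.64 ± 0.12 (adjusted p = 0.00297) against adult platelets. Tyms, thymidylate synthase of the de novo pathway, was at 19.3, 19.4 and 19.2 CPM in control, 23.4, 23.7 and 24.6 CPM with adult platelets and 22.6, 22.4 and 24.6 CPM with P7 platelets. It was higher with both kinds of platelets, by 0.31 ± 0.05 on the log2 scale (adjusted p = 0.00334) and 0.26 ± 0.05 (adjusted p = 0.00227), and P7 against adult platelets gave -0.05 ± 0.05 (adjusted p = 0.537).

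At the fork, Pcna, the sliding clamp of the DNA polymerases, was at 73.8, 86.4 and 82.0 CPM in control, 92.7, 100.0 and 101 CPM with adult platelets and 95.3, 109 and 114 CPM with P7 platelets. Control libraries lay below all others, with 0.28 ± 0.08 on the log2 scale (adjusted p = 0.0331) for adult platelets and 0.40 ± 0.08 (adjusted p = 0.00236) for P7 platelets. The first call ended without adult 2, adult 3, control 1, control 3 or P7 2 (adjusted p up to 0.0981). Uhrf1, which directs DNA methylation to newly copied strands, was at 34.7, 37.5 and 34.2 CPM in control, 40.9, 42.1 and 42.6 CPM with adult platelets and 37.6, 42.9 and 40.3 CPM with P7 platelets. Its rises of 0.24 ± 0.06 on the log2 scale (adjusted p = 0.0180) and 0.18 ± 0.06 (adjusted p = 0.0249) were lost without control 1 or control 3, and the second also without P7 2 or P7 3 (adjusted p up to 0.0758 and 0.101).

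Some of the mitotic genes rose by small amounts with each kind of platelets, and 2 of the 15 were called between P7 and adult platelets. With adult platelets 5 of 15 rose and 0 fell, with P7 platelets 6 rose and Aurkb fell, and between P7 and adult platelets 0 were higher and Aurkb and Bub1b were lower, by edgeR. At an unadjusted p under 0.05 these zeros stood at 0 and 1, and DESeq2 and limma-voom also gave 0 for both. Of the 15, the shares called higher and lower were 33.3 and 0%, 40 and 6.67%, and 0 and 13.3%. All genes tested had 14.3 and 12%, 29.9 and 29.3%, and 19.7 and 19.8%. The medians were 0.24, 0.21 and -0.05. The 5 that rose with adult platelets, Ccna2, Ccnb1, Cdk1, Aurka and Top2a, were all lost without control 2, and likewise without control 3. Other settings raised the count: with a replicate block 12 of the 15 were higher with adult platelets, and with P7 platelets 10 were higher and 2 lower. Without the libraries numbered 1 these counts were 12, 10 and 3, and with the Igkc level (an immunoglobulin transcript, described below) as a covariate 10, 10 and 2.

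Cdk1, the kinase that drives entry into mitosis, was at 94.9, 86.6 and 81.7 CPM in control, 114, 109 and 105 CPM with adult platelets and 122, 109 and 107 CPM with P7 platelets. Control libraries lay below all others, and the log2 fold changes were 0.31 ± 0.07 (adjusted p = 0.0119) and 0.37 ± 0.07 (adjusted p = 0.00183). Without control 3 the first had an adjusted p of 0.0519. Among the 12 mitotic genes with a window, Cdk1 alone had an E2F word in its promoter, part of which is printed above. Ccnb1, the cyclin B1 that activates it, was at 71.0, 59.5 and 56.7 CPM in control, 85.6, 75.5 and 72.7 CPM with adult platelets and 89.7, 80.8 and 76.0 CPM with P7 platelets, with 0.32 ± 0.10 on the log2 scale (adjusted p = 0.0425) and 0.40 ± 0.10 (adjusted p = 0.00728). Ccna2, cyclin A2 of S phase and G2, was at 239.8, 221 and 208 CPM in control, 275, 272 and 263 CPM with adult platelets and 285, 254 and 245 CPM with P7 platelets, with 0.28 ± 0.07 on the log2 scale (adjusted p = 0.0213) and 0.23 ± 0.07 (adjusted p = 0.0212). In each of these 3 genes all platelet libraries lay above all control libraries. The first call of Ccnb1 ended without adult 1, adult 2, control 2, control 3, P7 2 or P7 3 (adjusted p up to 0.146). That of Ccna2 ended without adult 1, control 2 or control 3 (up to 0.0872), and its P7 call without P7 1, control 2 or control 3 (up to 0.0860). Ccnb2, cyclin B2, was not called (0.18 and -0.10).

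Aurka, the kinase that matures spindle poles, and Aurkb, the kinase that corrects chromosome attachment, separated in the P7 libraries. Aurka was at 81.9, 74.3 and 68.5 CPM in control, 96.2, 87.2 and 84.8 CPM with adult platelets and 100.4, 91.7 and 90.7 CPM with P7 platelets, and rose by 0.26 ± 0.08 on the log2 scale (adjusted p = 0.0387) and 0.33 ± 0.08 (adjusted p = 0.00490). Its adult platelet call ended without adult 1, adult 2, control 2, control 3, P7 2 or P7 3 (adjusted p up to 0.136). Aurkb was at 125, 117 and 105 CPM in control, 126, 114 and 117 CPM with adult platelets and 107, 95.3 and 96.0 CPM with P7 platelets. It was lower with P7 platelets, with log2 fold changes of -0.22 ± 0.08 (adjusted p = 0.0316) against control and -0.26 ± 0.08 (adjusted p = 0.0244) against adult platelets, although P7 1 lay within the control range. The first was lost without control 1, control 2, P7 2 or P7 3 (adjusted p up to 0.112) and the second without adult 1, P7 2 or P7 3 (up to 0.0921). Bub1b, the checkpoint kinase BubR1, was at 231, 202 and 191 CPM in control, 251, 217 and 220.1 CPM with adult platelets and 210.1, 164 and 159 CPM with P7 platelets, and was lower with P7 than with adult platelets, at -0.37 ± 0.12 on the log2 scale (adjusted p = 0.0317). That call was lost without adult 1, adult 3, P7 2 or P7 3 (up to 0.117). Plk1, Tpx2, Birc5 and Bub1, all of the spindle or its checkpoint, were not called in any comparison; their log2 fold changes against control lay between 0.16 and 0.26.

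Ube2c, the ubiquitin-conjugating enzyme of the anaphase-promoting complex, had the largest log2 fold change against control among the 15 mitotic members. It was at 101, 89.0 and 83.6 CPM in control, 124, 103 and 106 CPM with adult platelets and 154, 118 and 128 CPM with P7 platelets, and rose with P7 platelets by 0.55 ± 0.11 on the log2 scale (adjusted p = 0.00248), or 1.46-fold. The adult platelet value was 0.28 ± 0.11 on the log2 scale (adjusted p = 0.0993). Top2a was at 760.1, 735 and 699.6 CPM in control, 817, 886 and 807 CPM with adult platelets and 911, 868 and 868 CPM with P7 platelets. Control libraries were lowest throughout, with 0.19 ± 0.06 on the log2 scale (adjusted p = 0.0340) for adult platelets and 0.27 ± 0.06 (adjusted p = 0.00268) for P7 platelets. The first was lost without adult 2, control 2, control 3, P7 2 or P7 3 (adjusted p up to 0.133). Cdc20, the activator of that complex, and Mki67 were not called in any comparison, and Mki67 ranged from 1064 to 1084 CPM in control to 1069.8 to 1275 CPM with adult and 1045 to 1145 CPM with P7 platelets.

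Within every group the libraries numbered 1 held the most transcript of nearly all mitotic genes: 14 of 15 in control, 13 of 15 with adult platelets and 15 of 15 with P7 platelets, where 39.5, 35.6 and 40.7% of all genes tested were highest in that library. The S-phase genes did not share this, with 4, 4 and 2 of 15. The immunoglobulin transcript Igkc was also highest in the libraries numbered 1, at 608, 121 and 138 CPM in control, 744, 121 and 389 CPM with adult platelets and 671, 192 and 153 CPM with P7 platelets. The 7 B and plasma cell markers made up 0.0349 to 0.112%, 0.0253 to 0.115% and 0.0262 to 0.0911% of counts in the 3 groups. The level of Igkc entered a fit as a covariate, given below, but its part in the mitotic values was not itself tested. With the libraries numbered 1 left out of every group, an alternative chosen after the data were seen, the members called were 21 higher and 0 lower with adult platelets, 22 and 10 with P7 platelets and 9 and 12 for P7 against adult platelets. With the log2 Igkc level as a covariate, also added then, they were 22 and 0, 22 and 11, and 5 and 12.

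Set against each other, the medians of S-phase and mitotic genes differed by less than the spread between libraries when all 9 were used. The S-phase median log2 fold change was 0.22 with adult platelets, 0.26 with P7 platelets and 0.06 for P7 against adult platelets, and it exceeded the mitotic median by -0.01, 0.05 and 0.10. By library the difference between both medians (S-phase minus mitotic, relative to the control mean) was -0.18, 0.05 and 0.11 in control, -0.14, -0.01 and 0.06 with adult platelets and -0.18, 0.11 and 0.21 with P7 platelets. The 3 groups overlapped, and the spread within groups, an SD of 0.158, was larger than each of the 3 differences. The library numbered 1 was the lowest of its group in all 3 groups. Without those 3 libraries, an alternative chosen after the data were seen, the SD was 0.0551. The differences were then -0.08 with adult platelets, 0.07 with P7 platelets and 0.17 for P7 against adult platelets. Each was larger than that SD, but the SD was taken after the lowest library of each group was removed, so this decides nothing. P7 and adult platelet libraries then did not overlap, with 2 in each group, while adult platelet and control libraries did. P7 2, at 0.114, lay just above control 3 at 0.112. No test was made of these differences. Leaving out 1 library at a time gave -0.13 to 0.05, -0.06 to 0.16 and 0.01 to 0.17, the last 2 upper values without P7 1. The S-phase median takes in genes called in both directions. With P7 platelets 9 of the 15 S-phase genes rose and 3 fell (60 and 20%, against 29.9 and 29.3% of all genes tested). The share that fell was under that of all genes. Compared with adult platelets 3 were higher and 3 lower with P7 platelets (20% each, against 19.7 and 19.8%).

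**Figure D5:**
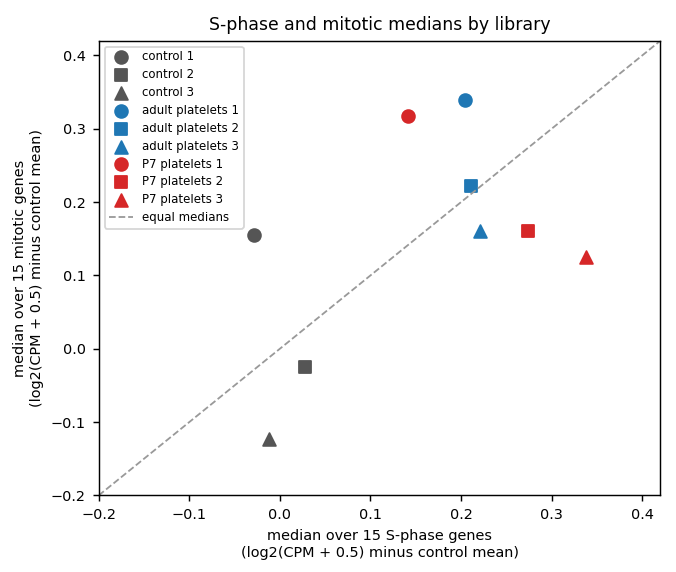
Median over the 15 S-phase genes (horizontal) and the 15 mitotic genes (vertical) of log2(normalised CPM + 0.5) minus the control mean, 1 point per library; the dashed line marks equal medians. The platelet libraries lie to the right of the control libraries, and the circles (replicate 1) lie above the line in all 3 groups.

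The other genes of the pathway were counted over whole lists, and the genes named from each are mainly those with the smallest p. Of 44 further replication genes 6 rose and 2 fell with adult platelets (13.6 and 4.55%, against 14.3 and 12% of all genes tested). With P7 platelets 12 rose and 12 fell (27.3% each, against 29.9 and 29.3%), and the medians were 0.08 and -0.03. These shares were near or under those of all genes. Tipin, of the complex that protects forks, rose with both (0.41 ± 0.05 on the log2 scale, adjusted p = 0.000408 and 0.59 ± 0.05, adjusted p = 9.16e-06), and Rpa2, a subunit that binds single-stranded DNA, rose with P7 platelets (0.57 ± 0.07, adjusted p = 0.000143). Rfc2, of the clamp loader, fell with P7 platelets from 45.8 to 50.4 CPM in control to 30.3 to 32.2 CPM (-0.62 ± 0.07 on the log2 scale, adjusted p = 4.73e-05). Wdhd1, which couples helicase and polymerase, and Dnmt1, the maintenance methyltransferase that Uhrf1 recruits, fell in the same comparison, with log2 fold changes of -0.44 ± 0.05 and -0.55 ± 0.07 (adjusted p = 0.000112 and 0.000128). The clamp gene Pcna and the clamp loader gene Rfc2 were thus called in opposite directions with P7 platelets.

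Of 45 further mitotic and kinetochore genes 10 rose and 0 fell with adult platelets (19 and 1 at an unadjusted p under 0.05 in edgeR), 14 rose and 7 fell with P7 platelets, and 1 was higher and 11 lower with P7 than with adult platelets. The shares were 22.2 and 0%, 31.1 and 15.6%, and 2.22 and 24.4%, where all genes had 14.3 and 12%, 29.9 and 29.3%, and 19.7 and 19.8%. The 1 higher gene was Pttg1, securin, which holds separase inactive until anaphase, at 12.9, 12.2 and 11.3 CPM in control, 13.0, 12.4 and 9.25 CPM with adult platelets and 24.7, 25.8 and 26.7 CPM with P7 platelets (1.08 ± 0.11 on the log2 scale, adjusted p = 4.29e-05 against control). Every P7 library held more Pttg1 than any other library, as was also seen for Ube2c in all but P7 2. Kif23, a motor of cytokinesis, and Cenpf, a kinetochore protein, fell with P7 platelets (-0.45 ± 0.07 on the log2 scale, adjusted p = 0.000648 and -0.46 ± 0.10, adjusted p = 0.00411), whereas the checkpoint genes Mad2l1 and Bub3 rose (0.32 ± 0.06, adjusted p = 0.00110 and 0.32 ± 0.06, adjusted p = 0.00141).

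Among CDK inhibitors, pocket proteins and other brakes, 2 rose and 3 fell of 25 tested with adult platelets and 7 rose and 7 fell with P7 platelets. These shares, 8 and 12% and then 28% each, were near or under those of all genes (14.3 and 12%, 29.9 and 29.3%). Cdkn1a, the inhibitor p21, was at 143, 165 and 174 CPM in control, 156, 199 and 180.2 CPM with adult platelets and 284, 411 and 447 CPM with P7 platelets, where it rose by 1.25 ± 0.16 on the log2 scale (adjusted p = 0.000153). Cdkn1b, the inhibitor p27, went the other way, at 159, 176 and 170.1 CPM in control, 121, 122 and 124 CPM with adult platelets and 94.7, 95.1 and 87.1 CPM with P7 platelets. It fell with both kinds of platelets, with log2 fold changes of -0.46 ± 0.05 (adjusted p = 0.000489) and -0.87 ± 0.05 (adjusted p = 2.49e-06), and further with P7 than with adult platelets (-0.41 ± 0.05, adjusted p = 0.000527). Gadd45a, a stress-induced gene that restrains CDK1, rose with P7 platelets by 1.71 ± 0.16 on the log2 scale (adjusted p = 2.40e-05). Tob1, an antiproliferative gene, fell with both (-0.77 ± 0.08 on the log2 scale, adjusted p = 0.000299 and -0.62 ± 0.08, adjusted p = 0.000182), and Ccng2, a cyclin linked with arrest, fell with P7 platelets (-0.54 ± 0.07, adjusted p = 0.000159). The inhibitor Cdkn2d rose and Rb1, the retinoblastoma gene, fell with P7 platelets (0.31 ± 0.07 on the log2 scale, adjusted p = 0.00254 and -0.37 ± 0.07, adjusted p = 0.00122), and Cdkn2c was not called (-0.01 ± 0.06, adjusted p = 0.928).

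Of 14 further E2F, DP and MYC family genes with Cdk6 and Cdc25a, 4 rose and 1 fell with adult platelets and 8 rose and 2 fell with P7 platelets. The shares were 28.6 and 7.14%, and 57.1 and 14.3%, against the same shares of all genes. Cdk6, the alternative partner of the D cyclins, was at 15.1, 16.2 and 16.8 CPM in control, 19.0, 22.8 and 24.2 CPM with adult platelets and 35.7, 40.8 and 41.3 CPM with P7 platelets, so the groups did not overlap. Its log2 fold change was 0.46 ± 0.10 (adjusted p = 0.00859) with adult and 1.29 ± 0.10 (adjusted p = 6.37e-06) with P7 platelets, opposite in direction to Cdk4 in the P7 libraries. Myc, a driver of growth and cell cycle entry, was at 2.43, 2.05 and 1.95 CPM in control, 4.73, 4.69 and 6.11 CPM with adult platelets and 5.32, 4.86 and 4.98 CPM with P7 platelets and rose with both (1.27 ± 0.14 on the log2 scale, adjusted p = 0.000388 and 1.24 ± 0.15, adjusted p = 7.81e-05), with -0.03 between P7 and adult platelets. Tfdp2, a DP partner of the E2Fs, had -0.54 ± 0.14 on the log2 scale (adjusted p = 0.0212) with adult platelets, a call lost without control 2 or control 3 (adjusted p up to 0.0733). It rose with P7 platelets by 1.35 ± 0.14 on the log2 scale (adjusted p = 3.49e-05). E2f3 and E2f4 rose with P7 platelets by 0.53 ± 0.09 on the log2 scale and 0.32 ± 0.05 (adjusted p = 0.000743 and 0.000616).

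Scaling changed the number of calls and turned 1 of the medians. Upper-quartile factors lowered the median of all genes by 0.03, 0.10 and 0.07 in the 3 comparisons. The share of higher calls among all calls moved from 54.4 to 45.4% for adult platelets against control. It moved from 50.5 to 39.5% for P7 against control and from 49.9 to 37.2% for P7 against adult platelets. Under them the members called were 9 higher and 0 lower, 14 and 12, and 3 and 13, and the S-phase median for P7 against adult platelets turned from 0.06 to -0.02.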

How the data were processed

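The authors deposited unnormalised read counts per gene symbol, 1 file per library, from oligo-dT selected, strand-marked (TruSeq) libraries read as single ends of 75 nt, per the labels' protocols. Per the submitters' processing notes, the tools were STAR 2.7.6a, Salmon 1.3.0, fastp 0.20.1 and featureCounts of Subread 2.0.1. Their roles, the strand setting, the annotation and the build were not given in the sources used here, so reads of overlapping or antisense genes may be shared.

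From the counts, edgeR 4.0.16 in R 4.3.3 fitted a quasi-likelihood model with a mean for each group to the 9 libraries together, with TMM factors (0.882 to 1.10) and the filterByExpr filter (minimum count 10), leaving 13707 genes, 6 residual degrees of freedom and a biological coefficient of variation of 0.114. P-values were adjusted over all genes tested in each of the 3 comparisons. The method was also run on simulated data, with independent libraries and changes larger than those of most members. That run therefore does not bear on changes as small as most of those described here. Library pairs of 1 group differed beyond sampling noise, so none was counted as a duplicate. Levels by library are CPM of the filtered, TMM-scaled library; 0.5 was added before logs for medians by library. Lengths are unions of GENCODE M21 exons, and promoter windows come from RefSeq (GRCm38.p6).

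The 39 members and the gene lists were chosen with earlier results of these data known. Of the members, values in every library are given for up to 4 called genes per role by smallest p, and for the other pathway lists up to 5 genes by smallest p are named, with Cdkn1a, Cdkn1b, Cdkn2c, Cdkn2d, Rb1, Myc and Cdk6. Marker genes from 8 lists served to describe other cells, and of these the 7 neutrophil markers made up 0.0114 to 0.0307% of counts. Alternatives were DESeq2 1.42.0 (size factors, Wald test), upper-quartile factors, no filter, a mean of 50 counts, limma-voom (limma 3.58.1), fits of only the 2 groups compared, a replicate block, removal of red cell, platelet and mitochondrial transcripts, and leaving out each library. The Igkc covariate and the fit without replicate 1 of every group were chosen after seeing the data. Counts carry no molecular identifiers.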

Additional observations from a re-analysis of the deposited data

Results flagged for a closer look

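Ccne1 was singled out because it was called in opposite directions against control with adult and with P7 platelets, and was also called between them. All 3 adult platelet libraries lay above and all 3 P7 libraries below the control libraries. The log2 fold change of P7 against adult platelets was -0.53 ± 0.09 (edgeR adjusted p = 0.00219), a call that the rule itself required. Its calls against control, 0.28 and -0.24, both had an adjusted p of 0.0494.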

How the results depend on the processing

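With adult platelets against control the 15 members called higher became 9 under upper-quartile factors and 24 with a replicate block, and ranged from 3 (without control 3) to 18 (without P7 1) when 1 library was left out. In the other comparisons leaving out 1 library gave 15 to 20 higher and 5 (without control 2) to 9 lower for P7 against control, and 3 to 6 higher and 6 to 10 lower for P7 against adult platelets. Without replicate 1 of every group, chosen after seeing the data, the 4 members higher with P7 than with adult platelets became 9, and these included all 4. The replicate block gave 22 higher and 10 lower for P7 against control and 6 and 13 for P7 against adult platelets. Whether libraries of the same number belong together was not settled. Deviations of the libraries numbered 1 correlated at 0.48 to 0.55 with each other and at -0.55 to 0.09 with libraries of other numbers. Libraries of the same number correlated at 0.17 to 0.55 in 7 of 9 pairs. The exceptions were -0.09 and -0.08 for adult 3 with control 3 and with P7 3, and control 3 correlated best with adult 2. The main fit had no block. Removing red cell, platelet and mitochondrial transcripts, the DESeq2 size factors, limma-voom and the stricter filter each kept all 6 counts within 1 gene, and no direction of a called member reversed under any setting. Where a call changed, the cause was not tested. Ccnd1, with 9 to 42 counts per control library, was not called with adult platelets at a log2 fold change of 1.02 ± 0.54 (edgeR adjusted p = 0.190), but passed with the replicate block (adjusted p = 0.0323) and the Igkc covariate (0.0413). The part of depth in low genes such as this was not tested.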
